A study of Homo sapiens with 8 samples.

Results

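SBO08 is the name of a short barcoded oligonucleotide that marked 1 culture in a single-cell RNA study of TGF-β-induced epithelial-to-mesenchymal transition and of pyridostatin, a ligand that stabilises G-quadruplex DNA. The cells are HMLE, human mammary epithelial cells immortalised in culture. Its cells were chosen by their barcode alone: a cell of mRNA library 3 or 4 that had 1000 genes or more, took no more than 15% of its UMIs from the mitochondrial genome and had SBO08 as its single assigned and highest barcode. There were 863 such cells, 477 in library 3 and 386 in library 4, out of 9757 cells assigned in the same way in the whole series and 3596 in these 2 libraries. They were set against 804 cells of SBO07 (430 and 374) and 368 cells of SBO11 (204 and 164) from the same libraries.

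All 3 groups are HMLE cultures, and SBO08, SBO07 and SBO11 differ in their labels by the barcode alone. The labels do not say which barcode received TGF-β or pyridostatin, at what dose or for how long, so no difference below is a treatment effect. Each barcode marks 1 culture. Libraries 3 and 4 are loads of the same pool on different channels, so the spread between them is technical, there is no replicate culture, and no test was possible. The oligonucleotides that identified the cultures, as deposited by the authors, are shown because every comparison rests on telling them apart.
SBO08: gccaagatcaggtcc
SBO07: cgaggtacatcttgt
SBO11: ctggtcgaacttcgt
The SBO08 sequence differs from that of SBO07 at 13 of its 15 positions and from that of SBO11 at 15, while those of SBO07 and SBO11 differ from each other at 9.

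The epithelial-to-mesenchymal transition is a programme in which epithelial cells loosen their junctions and take up mesenchymal traits, and TGF-β is its best-studied inducer in mammary cells. Vimentin, encoded by VIM, is the intermediate filament protein of mesenchymal cells, and basal mammary epithelium in culture also makes it. Podoplanin, encoded by PDPN, is a mucin-like membrane protein that links to the actin cortex through ERM proteins and is found in basal epithelium, lymphatic endothelium and invasive carcinoma fronts.

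The cells of the 3 cultures were alike in depth. SBO08 cells held a median of 30414 and 39055 UMIs in libraries 3 and 4, against 30832 and 40584.5 in SBO07 and 32204.5 and 39850 in SBO11. The sums over cells were 14368423 and 14665643 UMIs for SBO08, 12744361 and 15023345 for SBO07, and 6667545 and 6330913 for SBO11, so values of SBO11 are the least precise. The median mitochondrial share lay between 1.35 and 1.64% in the 6 sums. Cells with no assigned barcode carried a median of 43 and 52 UMIs of SBO08, against 14 and 16 of SBO07 and 0 of SBO11, whereas the lowest count in a cell assigned to SBO08 was 262. SBO08 cells held a median of 890 and 927.5 UMIs of their own barcode, against 15 and 18 of the next. The other 2 assignments were less clean. SBO07 cells held 354 and 419 against 41 and 47, with lowest counts of 85 and 99. SBO11 cells held 283 and 328 against 38 and 48.5, with lowest counts of 30 and 19. SBO08 was the highest barcode in 1311 of 1576 unassigned cells of library 3 and in 1070 of 1232 of library 4. Libraries 3 and 4 shared 128 cell barcodes among kept cells, which is 2.41% of library 3 and 3.103% of library 4, and these were treated as different cells. No marker defines a culture of this line, so the label was checked only for foreign cells: of 8 leukocyte, 7 endothelial and 8 stromal fibroblast markers, CD68, FAP and THY1 alone reached a mean of 10 CPM, and CD3E, MS4A1, TYROBP, TEK, COL14A1 and DPT had no UMI in any of the 6 sums.

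VIM was higher in SBO08 than in either other culture in both libraries. It stood at 219 CPM (CPM, its UMIs per 1000000 UMIs of all genes in the sum; exact Poisson 95% interval 211 to 226) in library 3 and 269 CPM (260.3 to 277) in library 4 for SBO08. For SBO07 it stood at 125 CPM (119 to 131) and 103 CPM (97.5 to 108), and for SBO11 at 70.8 CPM (64.5 to 77.5) and 132 CPM (123 to 141). Neither SBO08 value overlapped any value of the other cultures, although SBO11 differed widely between the loads. The intervals cover counting error only. On the scale of log2(CPM + 1) the ratios over SBO07 were 0.80 in library 3 and 1.38 in library 4, and those over SBO11 were 1.61 and 1.02, with a mean of 1.20.

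PDPN showed the same order at a lower level. SBO08 had 19.8 CPM (17.5 to 22.2) and 22.6 CPM (20.3 to 25.2), SBO07 had 11.7 CPM (9.89 to 13.7) and 10.5 CPM (8.94 to 12.3), and SBO11 had 9.30 CPM (7.13 to 11.9) and 8.69 CPM (6.55 to 11.3). The 2 SBO08 values lay above all 4 others, and the log2 ratios were 0.71 and 1.04 over SBO07 and 1.01 and 1.29 over SBO11. In the annotation of GENCODE release 29 on GRCh38, VIM spans chr10:17228259-17237593 on the plus strand, where VIM-AS1 overlaps it on the other strand, and PDPN spans chr1:13583465-13617957 on the plus strand.

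Among all 6 cultures of the pool SBO08 ranked below SBO12 for both genes. SBO12 had 236 and 286 CPM of VIM and 22.3 and 28.2 CPM of PDPN, and for both genes its range over the libraries overlapped that of SBO08. For VIM the next cultures were SBO09 with 149.7 and 97.3 CPM and SBO10 with 76.4 and 168 CPM, and SBO09, SBO10, SBO07 and SBO11 did not separate beyond the spread between loads. For PDPN SBO09 had 11.2 and 12.3 CPM and SBO10 had 7.84 and 9.28 CPM.

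**Figure D1:**
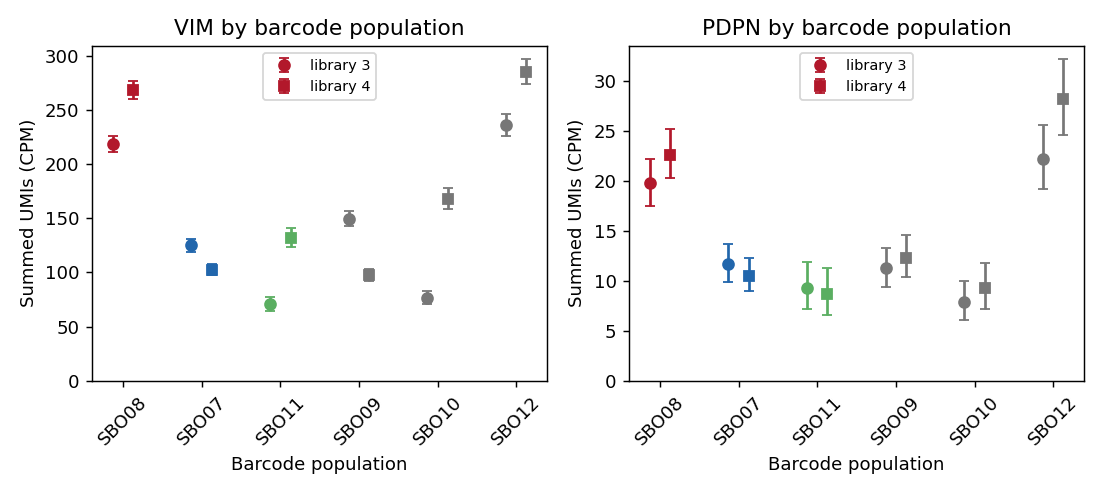
Summed UMIs of VIM (left) and PDPN (right) in CPM for each barcode population, with circles for library 3, squares for library 4 and bars for exact Poisson 95% intervals. The SBO08 points, at 219 and 269 CPM of VIM and 19.8 and 22.6 CPM of PDPN, lie above every point of SBO07 and SBO11 and near those of SBO12.

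More SBO08 cells carried VIM and PDPN transcripts. With each cell thinned to 10000 UMIs, which left out 53 SBO08, 46 SBO07 and 18 SBO11 cells with fewer, a VIM UMI was found in 364 of 810 SBO08 cells (44.9%, exact binomial 95% interval 41.5 to 48.4), in 259 of 758 SBO07 cells (34.2%, 30.8 to 37.7) and in 79 of 350 SBO11 cells (22.6%, 18.3 to 27.3). A PDPN UMI was found in 17.4% of SBO08 cells (14.9 to 20.2), 8.84% of SBO07 cells (6.92 to 11.1) and 8.57% of SBO11 cells (5.86 to 12.0). Both were found in 11.0% of SBO08, 4.49% of SBO07 and 3.43% of SBO11 cells. The intervals cover the counting of cells only, not the spread between cultures. Without thinning the shares were 61.6, 48.6 and 34.5% for VIM and 36.6, 25 and 19.8% for PDPN. No population in the pool should lack VIM, so the share that free RNA alone would give was not measured.

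VIM was spread unevenly among SBO08 cells. The 5% of cells with most VIM held 46.0% of its thinned UMIs in library 3 and 51.4% in library 4, with highest counts of 40 and 81. Cells with at least 10 VIM UMIs after thinning were 30 of 447 and 36 of 363 in SBO08 (6.71 and 9.92%). They were 16 of 401 and 5 of 357 in SBO07 (3.99 and 1.40%). In SBO11 they were 3 of 196 and 7 of 154 (1.53 and 4.55%). The difference was not carried by those cells alone: with the 5% highest cells of each culture and library left out, gene by gene, the mean log2 ratio was 1.5 for VIM and 1.15 for PDPN.

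Over the whole transcriptome 8228 genes had a mean of at least 10 CPM over the 6 sums. A gene was counted as higher in SBO08 when all 4 log2 ratios, over each of the other cultures in each library, were at least 0.5, and as lower when all were at most -0.5. By this rule 47 genes (0.571%) were higher and 4 (0.0486%) were lower. These shares of all measured genes are the background for each count of passing list members below. Both comparisons use the same SBO08 cells. Over SBO07 alone 62 genes (0.754%) were higher and 14 (0.17%) lower in both libraries, and over SBO11 alone 122 (1.48%) and 26 (0.316%). As a yardstick without SBO08, SBO07 over SBO11 gave 75 genes (0.912%) higher and 11 (0.134%) lower. By this count SBO08 was no farther from SBO07 than SBO07 was from SBO11. The counts are not of like precision, since SBO11 sums hold fewer UMIs and differ more between loads. Between library 3 and library 4 of one culture, 14 genes passed the same size upwards and 7 downwards in SBO08, 12 and 3 in SBO07, and 104 and 39 in SBO11. Just outside the threshold, with a smallest size between 0.4 and 0.5, lay 28 further genes on the higher side and 8 on the lower. Of the 47 genes, 8 were under 10 CPM in both SBO07 and SBO11 and were measured only through SBO08: S100A7, CXCL1, RASD1, AC239799.2, Z93241.1, JAG1, EDN1 and SPOCK1.

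**Figure D2:**
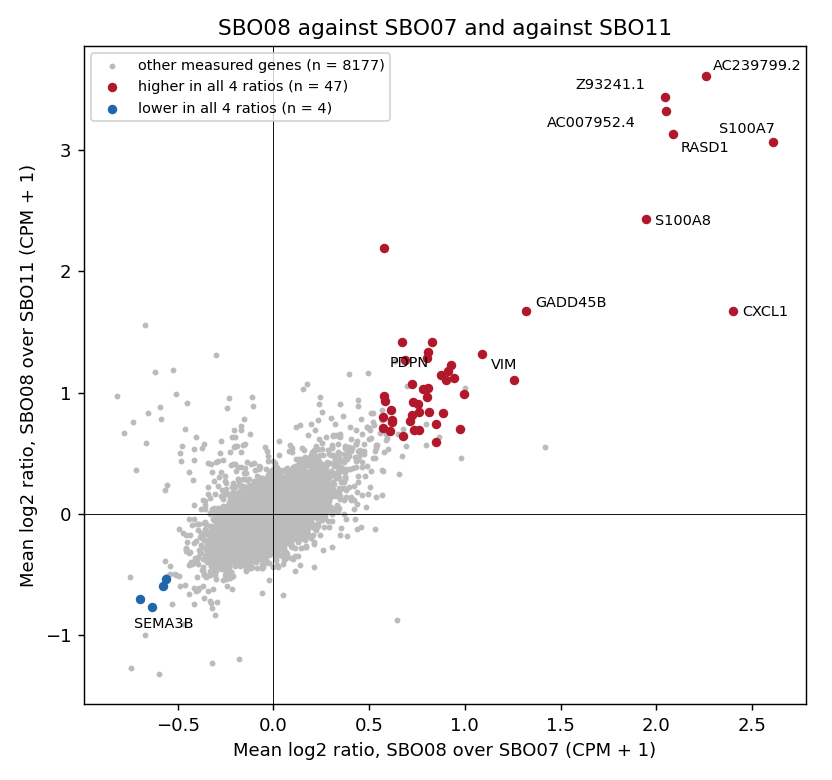
Mean log2 ratio over the libraries of SBO08 over SBO07 (horizontal) and of SBO08 over SBO11 (vertical) for the 8228 measured genes, on the CPM + 1 scale. The 47 genes higher in all 4 ratios are red, the 4 lower ones are blue, and S100A7, S100A8, CXCL1, RASD1 and 3 transcripts named after clones lie far from the rest.

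Of a list of 20 mesenchymal genes 3 were among the 47, namely VIM, TAGLN and IGFBP7. TAGLN, which encodes the actin-binding protein transgelin, had 56.9 and 61.03 CPM in SBO08, 33.0 and 40.5 CPM in SBO07, and 30.9 and 14.8 CPM in SBO11. IGFBP7, which binds insulin-like growth factors outside the cell, had 107 and 125 CPM in SBO08, 73.6 and 81.3 CPM in SBO07, and 52.3 and 65.4 CPM in SBO11. Both stood higher in SBO08 in each library, TAGLN most over SBO11 in library 4. Over the 17 measured members the median of the mean log2 ratio was 0.32, beside -0.02 for all measured genes, and 12 members were positive in all 4 ratios, as were 15.1% of all measured genes. The range ran from TPM2, a tropomyosin at -0.15, to VIM.

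Of the transcription factors of the transition, 5 of 12 were measured and SNAI2, which encodes the E-cadherin repressor Slug, was the 1 that passed. It had 23.5 and 21.3 CPM in SBO08, against 14.4 and 12.0 CPM in SBO07 and 12.0 and 12.6 CPM in SBO11, with no overlap. SOX9 and KLF4 had mean log2 ratios of 0.24 and 0.26, and TWIST1 had -0.13. Of 17 partners of podoplanin and vimentin, such as ERM proteins, 15 were measured and PDPN itself was the 1 that passed, with a median of 0.04 over the list.

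TGF-β signalling and target genes had 2 passing members among 17 measured, INHBA being the 1 described here, with a list median of 0.33. In all 4 ratios 9 members were positive, as were 15.1% of all measured genes. INHBA, a subunit of activin A, had 44.6 and 47.0 CPM in SBO08, 26.4 and 21.5 CPM in SBO07, and 19.6 CPM in both SBO11 sums. It was highest in SBO08 of the 3 cultures within each library, but it no longer passed without the cells rich in RASD1 described below, at a mean log2 ratio of 0.88. PMEPA1, CCN2 and TGFBI had mean log2 ratios of 0.83, 0.69 and 0.67 without passing, while the receptor TGFBR2 and the transducers SMAD2, SMAD3 and SMAD4 lay between -0.09 and 0.03, and ID3, an inhibitor of helix-loop-helix factors, had -0.22.

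Of the invasion genes, 1 of 17 measured passed. MMP9, the gelatinase B, had 79.2 and 107 CPM in SBO08, 52.7 and 43.7 CPM in SBO07, and 42.1 and 35.9 CPM in SBO11, a mean log2 ratio of 1.08. The urokinase gene PLAU had 0.65 and the inhibitor TIMP2 had -0.29, without passing. No member of the extracellular matrix list passed, with 8 of 24 genes measured and a median of 0.12.

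Basal keratins and hemidesmosome genes were shifted together by less than the threshold. Of 16 measured, KRT14 alone passed, 12 were positive in all 4 ratios, as were 15.1% of all measured genes, and the median was 0.36. KRT14, the type I keratin of basal epithelium, had 1024 and 1082 CPM in SBO08, 721 and 696 CPM in SBO07, and 611 and 599 CPM in SBO11. In the pool SBO12 had more, 2052 and 2094 CPM. The laminin genes LAMA3 and LAMB3 had mean log2 ratios of 0.63 and 0.64, KRT5 had 0.33 and DST had -0.12. The simple and mucosal keratins lay the other way, with a median of -0.15, 6 of 7 measured members negative in all 4 ratios, as were 22.5% of all measured genes, and none passing. KRT13, a mucosal keratin, had 63.3 and 44.4 CPM in SBO08, 79.9 and 81.2 CPM in SBO07, and 151 and 119.7 CPM in SBO11. Of the 3 cultures it was lowest in SBO08 in each library, but its smallest ratio was 0.33 in size.

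Junction genes were close to the background. None of 20 measured epithelial adhesion genes passed, with a median of -0.05. The range ran from CLDN4, a tight junction claudin at -0.27, to DSP, the desmosomal plakin at 0.24, and CDH1, the E-cadherin gene, had -0.04. Of 9 measured regulators of epithelial identity none passed, with a median of -0.08. ELF3, an epithelial ETS factor, had 147 and 132 CPM in SBO08, 193 and 167 CPM in SBO07, and 202 and 193 CPM in SBO11. None of the 11 measured luminal and secreted genes passed.

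**Figure D3:**
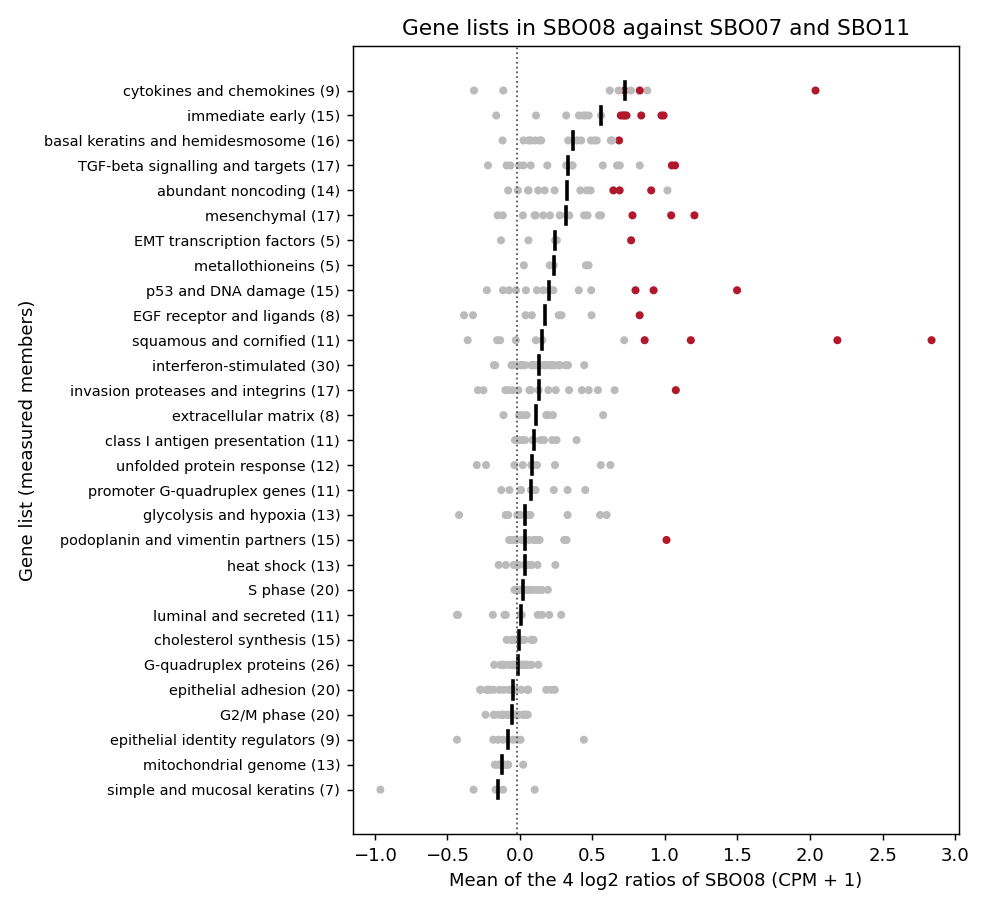
Mean of the 4 log2 ratios of SBO08 for every measured member of each gene list with at least 4 measured genes, except the list of RASD1 and clone-named transcripts (median 2.68), with red for members that passed, grey for the others, and a black bar for the list median. The dotted line is the median of all measured genes at -0.02, and of the lists drawn the cytokine and immediate early lists lie highest and simple and mucosal keratins lowest.

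Squamous genes contributed 4 of the 47 from 11 measured, and S100A7 among them rested on few cells. The cells that held S100A8 or S100A9 were not counted. S100A7, the psoriasin gene, had 22.1 and 84.2 CPM in SBO08, 3.77 and 10.1 CPM in SBO07, and 4.50 and 4.11 CPM in SBO11. Its mean was under 10 CPM in both SBO07 and SBO11, so it entered the count only through SBO08. In the pool SBO09 had 106 and 5.60 CPM of S100A7. After thinning, 31 of 810 SBO08 cells held an S100A7 UMI (3.83%, 2.62 to 5.39), against 18 of 758 SBO07 cells and 6 of 350 SBO11 cells, and 1 SBO08 cell of library 4 held 245. S100A8, a calprotectin subunit, had 55.6 and 103 CPM in SBO08, 22.9 and 15.6 CPM in SBO07, and 13.6 and 12.8 CPM in SBO11. With each gene's 5% highest cells left out, S100A7, S100A8 and S100A9 no longer passed, with mean log2 ratios of 0.77, 1.29 and 0.42, whereas SERPINB2, the plasminogen activator inhibitor PAI-2, passed with 1.33. Those cells held 96.2 and 99.3% of the S100A7 UMIs of SBO08. What remained of S100A7 could not reach the minimum of 10 CPM, so its ratio of 0.77 says little. SERPINB2 had 88.1 and 89.8 CPM in SBO08, 36.2 and 37.1 CPM in SBO07, and 48.9 and 34.3 CPM in SBO11, and it overlaps SERPINB10 on the same strand. Without cells under 0.5% mitochondrial UMIs, S100A8 and S100A9 did not pass either. The list median was 0.16, and KLK6, a kallikrein protease, had the lowest mean of the list at -0.36.

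Immediate early genes were the list with most passing members, 7 of 15 measured: FOS, FOSL1, JUN, ATF3, DUSP1, IER3 and IER5. Their products are mostly transcription factors and phosphatases made soon after a stimulus. JUN had 368 and 353 CPM in SBO08, 212 and 235 CPM in SBO07, and 141 and 158 CPM in SBO11. ATF3, a stress-induced transcription factor, had 45.9 and 50.2 CPM in SBO08, 22.9 and 24.3 CPM in SBO07, and 28.6 and 19.6 CPM in SBO11. The list median was 0.56, and 14 members were positive in all 4 ratios, FOSL2 at -0.16 being the exception. Of all measured genes 15.1% were positive in all 4 ratios and 0.571% passed as higher. Growth arrest genes of the p53 and DNA damage list went with them: GADD45B, GADD45A and BTG2 passed out of 15 measured. GADD45B had 158 and 155 CPM in SBO08, 66.1 and 58.1 CPM in SBO07, and 59.2 and 39.5 CPM in SBO11, while the p53 targets MDM2 and BAX had mean log2 ratios of 0.12 and 0.04. High levels of these genes were not particular to SBO08 in the pool. SBO10 had 201 and 219 CPM of GADD45B, 43.9 and 58.0 CPM of ATF3, and 286 and 320 CPM of JUN. SBO09 had 117 and 103 CPM of GADD45B, 54.2 and 65.4 CPM of ATF3, and 356 and 416 CPM of JUN.

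Cytokine genes had the highest list median, 0.72, apart from the transcripts described next, with CXCL1, IL1A and TNFAIP3 passing out of 9 measured. CXCL1 had a mean under 10 CPM in both SBO07 and SBO11 and was measured only through SBO08. Its part in this count and median therefore follows in part from the filter on level. CXCL1, a neutrophil chemokine, had 28.3 and 32.7 CPM in SBO08, 4.79 and 5.13 CPM in SBO07, and 10.0 and 7.74 CPM in SBO11. In the pool SBO09 had 23.7 and 23.5 CPM of CXCL1. IL1A, which encodes interleukin-1α, had 34.3 and 35.3 CPM in SBO08, 19.2 and 18.5 CPM in SBO07, and 22.2 and 23.2 CPM in SBO11. The other way lay CXCL10, an interferon-induced chemokine, with a mean log2 ratio of -0.31. Of the EGF receptor and its ligands 1 of 8 measured passed, HBEGF, with 27.9 and 26.7 CPM in SBO08, 14.5 and 17.8 CPM in SBO07, and 11.8 and 16.3 CPM in SBO11. SBO10 had 24.4 and 26.3 CPM of HBEGF.

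Beside S100A7, the genes with mean log2 ratios over 2.6 were RASD1 and transcripts named after clones. RASD1 encodes a dexamethasone-induced Ras-like GTPase and lies at chr17:17494437-17496395 on the minus strand. It had 27.7 and 25.7 CPM in SBO08, 7.06 and 4.26 CPM in SBO07, and 2.85 and 1.58 CPM in SBO11, a mean log2 ratio of 2.61. AC007952.4 had 59.9 and 56.3 CPM in SBO08, 17.9 and 9.72 CPM in SBO07, and 7.05 and 3.32 CPM in SBO11. AC239799.2 had 45.9 and 39.3 CPM in SBO08, 7.38 and 8.85 CPM in SBO07, and 3.60 and 1.74 CPM in SBO11, and Z93241.1 had 26.2 and 21.96 CPM in SBO08, 6.51 and 3.86 CPM in SBO07, and 1.95 and 0.790 CPM in SBO11. These 4 were at least 3 times higher in SBO08 sums than in any sum of the other 2 cultures. They were not particular to SBO08 in the pool. SBO10 had 38.6 and 33.2 CPM of RASD1 and 43.7 and 69.4 CPM of AC007952.4. It had 37.0 and 40.4 CPM of AC239799.2 and 17.3 and 14.2 CPM of Z93241.1. SBO09 and SBO12 lay below SBO08 for all 4. AC007952.4, at chr17:19112000-19112636, covers the U3 small nucleolar RNA gene SNORD3D on its own strand, and Z93241.1, at chr22:42615244-42615907, covers the U12 small nuclear RNA gene RNU12 on its own strand, so reads of the pairs may not be told apart. AC239799.2 was not matched in this annotation. RASD1, AC239799.2 and Z93241.1 were put on a list because of earlier results of these data, so their direction is no independent evidence.

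Hosts of small nucleolar RNAs were also among the 47. SNHG1 had 128 and 109 CPM in SBO08, 69.1 and 67.7 CPM in SBO07, and 64.8 and 50.7 CPM in SBO11. In the pool SBO10 had 133 and 152 CPM of SNHG1, and SBO09 had 101 and 114 CPM. SNHG8 and GAS5 passed as well, with mean log2 ratios of 0.69 and 0.65, while SNHG12 missed the threshold through 1 ratio of 0.48, over SBO11 in library 3. Of the noncoding list 3 of 14 measured passed, the median was 0.33, and the nuclear RNAs MALAT1 and NEAT1 had -0.01 and -0.08. CSKMT, whose gene holds SNORA57 on the same strand, had a mean log2 ratio of 1.00.

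These transcripts were concentrated in a minority of cells. Cells were divided by the share of their UMIs from RASD1, ARC, SNHG12, AC239799.2 and Z93241.1, at the 90th percentile of the 3 cultures together in each library. This percentile is a point on a range, not a cell type. Above it lay 150 of 863 SBO08 cells (17.4%, 14.9 to 20.1), 38 of 804 SBO07 cells (4.73%, 3.37 to 6.43) and 16 of 368 SBO11 cells (4.35%, 2.51 to 6.97). In the separate libraries the shares were 17.8 and 16.8% in SBO08, 3.72 and 5.88% in SBO07, and 4.90 and 3.66% in SBO11. RASD1, AC239799.2 and Z93241.1 had already passed in SBO08, so an excess of SBO08 cells above the percentile follows from the choice of genes. The shares are therefore no separate result. The intervals cover the counting of cells only, not the spread between cultures. The SBO08 cells above the percentile had a median of 27674 and 33223 UMIs, against 30904.5 and 40386 below it. In SBO11 the 10 cells above it in library 3 had a median of 29483.5 UMIs, against 32277.5 below it. The 6 in library 4 were shallow, with a median of 3461 UMIs against 39957.5. Their median mitochondrial share was 0.17%, against 1.64%.

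Several genes not used for this division differed between the cells above and below it within SBO08. GADD45B had 651 and 715 CPM above it, against 62.1 and 63.9 CPM below it. JUN had 1074 and 1008 CPM above and 232 and 245 CPM below, CXCL1 had 99.1 and 99.0 CPM above and 14.5 and 21.9 CPM below, and SNHG1 had 445 and 350.5 CPM above and 66.6 and 69.7 CPM below. VIM was at 218 and 285 CPM above and 219 and 266 CPM below, and PDPN at 18.5 and 29.6 CPM above and 20.02 and 21.5 CPM below. The ratio of above to below in SBO08 lay between 4.11 and 11.2 for GADD45B, JUN, CXCL1 and SNHG1, and between 0.922 and 1.38 for VIM and PDPN. In SBO07 and SBO11, too, GADD45B, JUN, CXCL1 and SNHG1 were higher above the percentile than below it in each library. SBO07 had 497 and 413 CPM of GADD45B above and 48.4 and 40.6 CPM below. JUN in SBO07 had 938 and 838 CPM above and 182 and 206 CPM below. SBO11 had 402 and 596 CPM of GADD45B above, from few cells, and 39.9 and 31.9 CPM below.

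With the cells above the percentile left out of all 3 cultures, 20 of the 47 genes still passed. Among them were VIM, PDPN, TAGLN, IGFBP7, SNAI2, MMP9, KRT14, S100A7, S100A8, S100A9, SERPINB2, GADD45A, FOSL1, IER3, G0S2, SPHK1, IGFL1 and SPOCK1. The mean log2 ratio was then 1.25 for VIM and 0.98 for PDPN. The other 27 did not pass, among them GADD45B at 0.65, JUN at 0.52, ATF3 at 0.41, SNHG1 at 0.32, BTG2 at 0.20 and FOS at -0.15. Some of the 27 missed the rule with a mean ratio close to that in all cells: JAG1 had 0.70 against 0.74, INHBA 0.88 against 1.05, IL1A 0.60 against 0.72 and TNFAIP3 0.68 against 0.83. CXCL1 kept a mean of 1.53, and RASD1, used for the division, kept 0.98. Of the 4 lower genes SEMA3B and CMTM4 still passed.

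**Figure D4:**
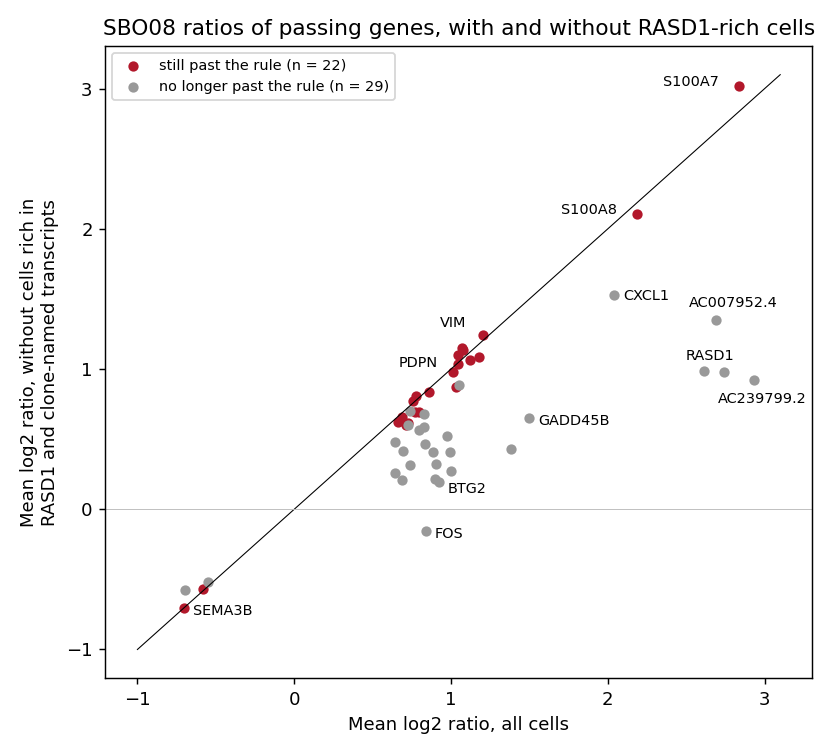
Mean of the 4 log2 ratios of the 47 higher and 4 lower genes with all cells (horizontal) and without the cells rich in RASD1 and clone-named transcripts (vertical), with the line of equality. VIM, PDPN, S100A7 and S100A8 lie near the line, whereas GADD45B, BTG2 and FOS lie well below it.

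Genes outside these groups were G0S2, TNFSF9, SGK1, IGFL1 and SPHK1, among others. G0S2, an inhibitor of triglyceride lipase, had 50.4 and 55.2 CPM in SBO08, 25.4 and 28.6 CPM in SBO07, and 18.6 and 30.0 CPM in SBO11. Neither SBO08 value overlapped any of the other cultures.

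The 4 lower genes were few and their differences small. SEMA3B, a secreted semaphorin, had 11.1 and 13.4 CPM in SBO08, 19.1 and 19.9 CPM in SBO07, and 21.9 and 21.0 CPM in SBO11. RHOF, a small GTPase of filopodia, had 46.2 and 48.8 CPM in SBO08, 67.6 and 73.5 CPM in SBO07, and 67.9 and 70.4 CPM in SBO11. KCNK15, of the two-pore potassium channel family, and CMTM4, a chemokine-like membrane protein, had mean log2 ratios of -0.70 and -0.58. No member of any gene list passed on the lower side.

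**Figure D5:**
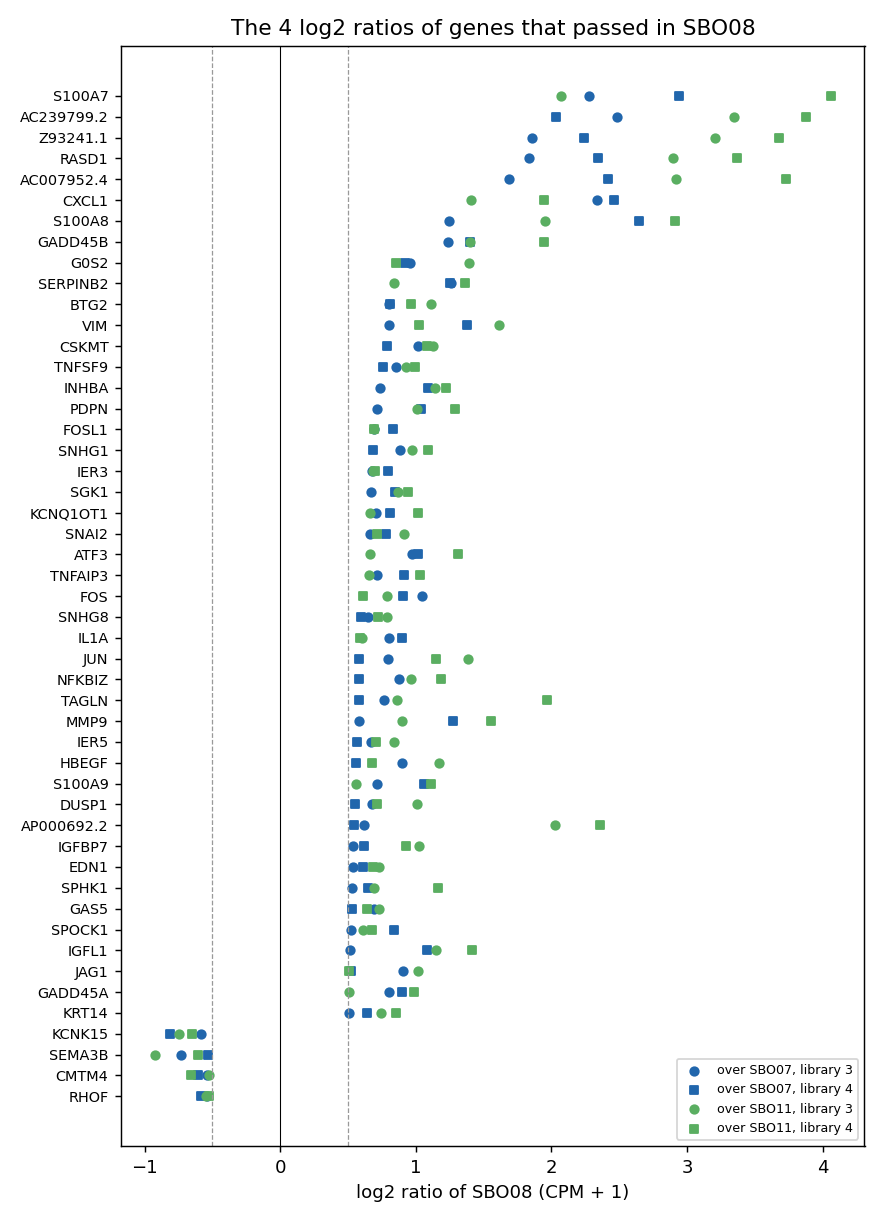
The 4 log2 ratios of SBO08 on the CPM + 1 scale for 45 of the 47 higher genes and the 4 lower genes, in order of the smallest ratio, with blue for SBO07, green for SBO11, circles for library 3 and squares for library 4. Dashed lines mark 0.5 and -0.5, and the ratios run up to 4.06 for S100A7 over SBO11 in library 4.

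Interferon-stimulated genes placed SBO08 between the other cultures. All 30 on the list were measured, and 28 were lower in SBO08 than in SBO07 in both libraries, while 28 were higher than in SBO11 in both. The share of all measured genes with such a sign in both libraries was not counted, here or for the next list. The list median was -0.43 over SBO07 and 0.65 over SBO11, beside -0.02 for all measured genes in each comparison. Past the size of 0.5 in both libraries, 7 members were lower than in SBO07 and 18 were higher than in SBO11. Of all measured genes 0.17% and 1.48% passed in these ways. IFI27, a small interferon-induced mitochondrial protein, had 375 and 359 CPM in SBO08, 588 and 580.5 CPM in SBO07, and 128 and 119.6 CPM in SBO11. MX1, an antiviral GTPase, had 315 and 288 CPM in SBO08, 467 and 396 CPM in SBO07, and 166 and 138 CPM in SBO11. None of the 30 therefore passed in either direction over both. All 11 measured genes of class I antigen presentation were higher in SBO08 than in SBO11 in both libraries, and 7 of the 11 were lower than in SBO07 in both. Their median was 0.34 over SBO11 and -0.08 over SBO07, beside -0.02 for all measured genes in each. HLA-B, a class I heavy chain, had 647 and 673 CPM in SBO08, 709 CPM in both SBO07 sums, and 397 and 319.9 CPM in SBO11.

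No member of the remaining lists passed, and most of their medians lay near the background of -0.02. The medians were 0.02 for 20 S phase genes, -0.05 for 20 G2/M genes, 0.03 for 13 heat shock genes, 0.08 for 12 genes of the unfolded protein response, 0.04 for 13 genes of glycolysis and hypoxia, and -0.01 for 15 of cholesterol synthesis. Farther from it lay the 13 genes of the mitochondrial genome, with a median of -0.12. Of them 8 were negative in all 4 ratios, as were 22.5% of all measured genes. The 5 measured metallothioneins had a median of 0.23, and 3 were positive in all 4 ratios, as were 15.1% of all measured genes. Proteins that bind or unwind G-quadruplexes, 26 of which were measured, had a median of -0.01, and 11 measured genes with studied promoter G-quadruplexes had 0.08, with MYC at 0.45.

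Promoter sequences were read because immediate early, cytokine and RASD1 transcripts moved together and the study concerns G-quadruplexes. RefSeq promoters on GRCh38.p14, taken as the 250 bases before the start, were matched for 31 of the 47 higher genes. An AP-1 motif TGANTCA was found on either strand in 3 of them (9.68%), IL1A, SERPINB2 and SPHK1, against 5.44% of measured genes. The motif of GGG, 2 bases of any kind and TTTCC, a form of the NF-κB site, was found on either strand in CXCL1, NFKBIZ and TNFAIP3 (9.68%), against 2.75% of measured genes. A run pattern of 4 stretches of at least 3 G with 1 to 7 bases between them, on either strand, was found in 8 (25.8%), against 38.5% of measured genes. Such matches describe the letters only. The sequences of VIM, of the chemokine CXCL1 and of 2 genes of the RASD1-rich cells are shown 5′ to 3′ on the gene's strand, with capitals for matches.
VIM, chr10:17227991-17228240 on the plus strand, with no match: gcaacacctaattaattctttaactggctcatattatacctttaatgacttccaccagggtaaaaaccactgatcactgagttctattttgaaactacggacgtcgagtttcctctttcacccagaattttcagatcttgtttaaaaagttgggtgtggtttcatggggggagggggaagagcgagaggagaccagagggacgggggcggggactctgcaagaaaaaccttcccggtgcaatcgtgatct
CXCL1, chr4:73869143-73869392 on the plus strand, with a C-rich run pattern and then the NF-κB motif: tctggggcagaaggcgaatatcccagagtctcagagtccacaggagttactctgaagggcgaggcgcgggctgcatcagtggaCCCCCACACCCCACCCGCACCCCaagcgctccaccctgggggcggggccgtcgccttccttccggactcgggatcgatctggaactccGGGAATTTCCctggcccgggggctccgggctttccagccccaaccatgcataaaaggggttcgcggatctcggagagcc
GADD45B, chr19:2475877-2476126 on the plus strand, with a C-rich run pattern: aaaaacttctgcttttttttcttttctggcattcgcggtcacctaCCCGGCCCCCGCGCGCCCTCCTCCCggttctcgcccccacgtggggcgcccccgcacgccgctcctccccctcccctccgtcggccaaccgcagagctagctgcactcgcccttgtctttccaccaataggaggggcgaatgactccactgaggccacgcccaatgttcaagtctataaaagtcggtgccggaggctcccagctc
RASD1, chr17:17496396-17496645 on the minus strand, with a G-rich run pattern: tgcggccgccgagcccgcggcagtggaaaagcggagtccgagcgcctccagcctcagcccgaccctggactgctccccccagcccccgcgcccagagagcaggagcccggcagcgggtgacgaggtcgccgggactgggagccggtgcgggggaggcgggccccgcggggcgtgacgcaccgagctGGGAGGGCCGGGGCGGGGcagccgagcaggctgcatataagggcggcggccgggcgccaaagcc

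Across the 12 sums of the 6 cultures, the genes whose log2(CPM + 1) followed PDPN most closely were SERPINE2, SNAI2, CAV2, IGFBP7 and WNT7A, with Pearson's r between 0.94 and 0.95. Those closest to VIM were GNA15, ISOC2, MAP1B, HMGA2 and NIP7, with r between 0.86 and 0.90, and VIM and PDPN followed each other at 0.86. The 12 sums are pairs from the same culture and the highest values are those of SBO12 and SBO08, so these are descriptions of 6 cultures.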

How the data were processed

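UMI counts per gene and per barcode oligonucleotide in 4 mRNA libraries were used as the authors deposited them, in 1 raw count matrix per library. The submitters' processing notes name hg38 as the build, and as tools Seurat 4.1.0, Cell Ranger 6.0.2 and bcl2fastq 2.20.0.422. The sources used here give neither filters before deposit nor the gene annotation release. A 5′ kit reads transcript starts and UMIs collapse PCR copies.

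Cells of libraries 3 and 4 (5304 and 4125 after the filters of 1000 genes and 15% mitochondrial UMIs) were assigned in each library by HTODemux of Seurat 5.3.0 (R 4.3.3) on centred log ratios of SBO07 to SBO12 with a positive quantile of 0.99. This gave 2583 and 2038 singlets, 1576 and 1232 cells with no barcode and 1145 and 855 with several, which were left out as doublets. No other doublet caller was run, and pairs from 1 culture stay in. Singlets with another barcode higher were left out, 11 and 17 for SBO07, 89 and 68 for SBO11 and none for SBO08. UMIs were summed per barcode and library with numpy 2.4.6 and pandas 2.3.3 and scaled to CPM. Log2 ratios used a pseudocount of 1 and the same library. The rule of 4 ratios was tested on simulated data. Scaling by TMM in edgeR 4.0.16 was an alternative.

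The cultures, members and gene lists were chosen with earlier results of these data known. Genes named were VIM and PDPN, the 12 higher and up to 12 lower genes with the largest smallest ratio (XIST and Y-linked genes left out), each list's highest and lowest member, and the 5 genes most like VIM and PDPN. Other genes that passed, and further list members, were named after their values were seen. Results of a few genes that the naming rule or the 4 ratios selected are not reported here.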

Additional observations from a re-analysis of the deposited data

Results flagged for a closer look

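Barcodes of the other pool appeared in kept cells of these libraries, where none was loaded by the assignment. SBO01 to SBO06 together had 86 UMIs in library 3, of which 77 were of SBO01, and 8 UMIs in library 4. They stand beside 2195650 and 1854198 UMIs of SBO08 in the same cells. Their part in the results was not tested. Over measures of depth and quality none of the 4 libraries stood apart from the others by Dixon's criterion.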

How the results depend on the processing

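VIM and PDPN passed the rule in each of the 17 alternatives, except that neither did at a log2 ratio of 1 and that PDPN was not measured at a minimum of 50 CPM. The 47 higher and 4 lower genes became 21 and 2 without the cells rich in RASD1 and clone-named transcripts, 19 and 1 at 50 CPM, 103 and 13 with no filter on level, 115 and 34 at a log2 ratio of 0.3, and 8 and 0 at 1. Without cells under 0.5% mitochondrial UMIs the counts were again 47 and 4, but S100A8, S100A9, SPOCK1 and IGFL1 no longer passed. The lower genes alone moved past 1.5 times with all singlets (2), a positive quantile of 0.95 (0), TMM scaling (2), a pseudocount of 5 (0) and thinned cells (7, none of the 4 among them). With 1 library left out, the counts ranged from 62 to 78 higher and from 10 to 20 lower. In an alternative chosen after seeing the data, with each gene's 5% highest cells left out, 40 were higher, 30 of them among the 47, and 9 lower. Only 7653 genes were then measured, so a gene could also fail through its level. The log2 ratio over SBO11 was then 1.82 for VIM and 1.36 for PDPN. That of PDPN was 0.95 at a quantile of 0.95 and 0.90 with a pseudocount of 5. At 5000 UMIs a cell the share with a VIM UMI was 34.1% in SBO08, 24.7% in SBO07 and 19.6% in SBO11, and with a PDPN UMI 9.24, 5.16 and 3.63%. Without thinning it was 61.6, 48.6 and 34.5% for VIM and 36.6, 25 and 19.8% for PDPN. FOS had the opposite sign, -0.15, without the RASD1-rich cells. The causes were not tested. No paired analysis was possible because each barcode marks 1 culture, and no result on the cultures comes from a test. The 368 SBO11 cells limit precision most, since 143 genes differed past 0.5 between its loads.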

Other observations

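Some of the genes that passed belong to none of the lists. AP000692.2, a transcript on the strand opposite MORC3, had 21.4 and 24.3 CPM in SBO08, 13.7 and 16.4 CPM in SBO07, and 4.50 and 3.95 CPM in SBO11, so most of its mean came from SBO11. TNFSF9, a ligand of the tumour necrosis factor family, had 48.7 and 42.6 CPM in SBO08, 26.5 and 24.8 CPM in SBO07, and 25.05 and 20.8 CPM in SBO11. SGK1, a serum- and glucocorticoid-regulated kinase, had 31.8 and 36.8 CPM in SBO08, 19.6 and 20.04 CPM in SBO07, and 16.9 and 18.6 CPM in SBO11. Without the RASD1-rich cells neither TNFSF9, at a mean log2 ratio of 0.41, nor SGK1, at 0.47, passed. SPHK1, the sphingosine kinase 1 gene, had 109 and 126 CPM in SBO08, 75.6 and 80.4 CPM in SBO07, and 67.3 and 55.8 CPM in SBO11, and it still passed without them. IGFL1, a small secreted protein of the IGF-like family, had 99.8 and 105 CPM in SBO08, 69.4 and 48.9 CPM in SBO07, and 44.4 and 38.7 CPM in SBO11. IGFL1 still passed without the RASD1-rich cells, but not without cells under 0.5% mitochondrial UMIs.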
